A study of Mus musculus with 24 samples.

Results

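The Hox genes are 4 chromosomal clusters, named A to D, of genes for homeodomain transcription factors. Members were taken as every row of the array table whose only gene symbol was Hox, a cluster letter and a number, with 1 row kept per gene (the row with the highest mean over the arrays). This gave 36 genes of the 22180 genes with a row of their own: 9 in cluster A, 10 in cluster B, 9 in cluster C and 8 in cluster D. Hoxa11 and Hoxd4 had only rows shared with another symbol and are not members.

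The arrays (Affymetrix Mouse Gene 2.0 ST) measured RNA from osteoblasts that had been released by collagenase and trypsin from the skull vault, the calvaria, of C57BL/6 mouse pups aged 7 to 10 days. Pups were labelled wild type or knockout for β-arrestin 2, an adaptor that binds activated G protein-coupled receptors and is encoded by Arrb2. Cells of passage 2 were collected on days 2, 5, 10 and 28, and from day 3 the medium contained ascorbic acid at 50 mg/L together with β-glycerophosphate at 5 mM, so the day 2 cells of both labels had not yet received these bone-forming supplements. Each of the 8 groups of label and day had 3 arrays, 24 in all, described as independently prepared.

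Hox proteins give cells of the trunk and hindbrain their position along the head-to-tail axis. Genes at one end of each cluster, with low paralog numbers, are used further forward and earlier in the embryo than those at the other end. The skull vault forms from cranial neural crest and head mesoderm in front of the Hox-expressing region, and Hoxa2, the member used furthest forward in neural crest, patterns the second pharyngeal arch, where its loss turns skeletal parts towards the form of the first arch.

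Values are log2 RMA intensities, so a difference of 1 is a doubling of signal, and a probe set's level is compared only with other values of the same probe set or with a level of the whole array. Array medians lay between 4.55 and 4.72. As a floor, the 95th percentile of 1440 olfactory, vomeronasal and taste receptor rows, genes seldom used outside sensory cells, lay between 4.38 and 4.69 and is called the receptor background. The median of these rows was lower, between 2.28 and 2.48, so a value under the receptor background does not show that a gene is unused. Of 9 osteoblast markers with a row, Col1a1 (type I collagen) stood at group means of 13.18 to 13.67, while the late markers Dmp1 and Phex stood at 3.47 and 3.42 on day 2 in the labelled wild type, under the receptor background. Arrb2 was higher and not lower in the arrays labelled knockout, with a mean difference over the days of 1.00 (limma adjusted p = 6.44e-06). The difference was 1.21, 1.58, 0.82 and 0.40 on days 2, 5, 10 and 28. It was called on days 2 and 5 only (limma adjusted p = 0.0206, 0.000357, 0.0932 and 0.797). The deleted part of the gene is not given in the sources used here, so the probes may lie outside it and the level then checks nothing. "Labelled knockout" and "labelled wild type" are therefore used throughout.

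Most Hox genes were at or under the receptor background in these cells. Only Hoxa4, Hoxa6, Hoxb3, Hoxb5, Hoxd8 and Hoxd10 exceeded it on all 24 arrays, 20 others did so on some arrays, and 10 did so on none (Hoxb6, Hoxb7, Hoxc4, Hoxc5, Hoxc6, Hoxc8, Hoxc9, Hoxc11, Hoxd1 and Hoxd11). Among all genes, 52.4% exceeded the receptor background on all 24 arrays and 27.0% on none. Cluster C held 6 of the 10 Hox genes that never exceeded it and none of the 6 that always did. Within single groups, 8 to 13 of the 36 Hox genes (22.2% to 36.1%) exceeded it on all 3 arrays, beside 56.8% to 59.9% of all genes. The share was thus lower for the Hox genes in each of the 8 groups. Against a stricter floor, the 99th percentile of the receptor rows (5.23 to 5.73), Hoxa2 and Hoxd8 were the only Hox genes above it on all 3 arrays on days 10 and 28 in both labels, with Hoxb5 added on day 10 in the labelled wild type. On day 2 there was none in either label, and on day 5 only Hoxd8 in the labelled wild type.

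**Figure D1:**
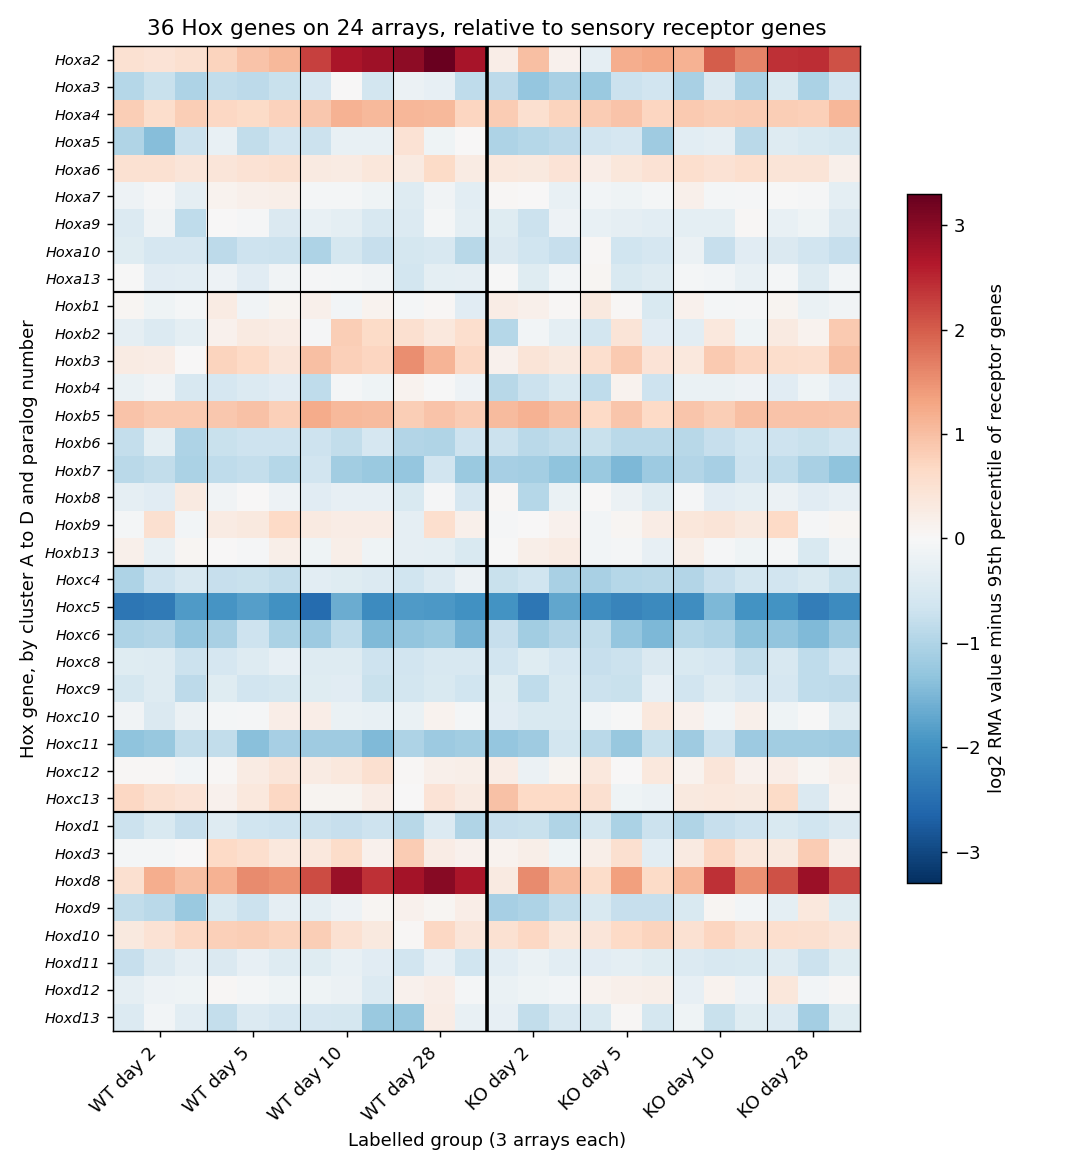
Each row is a Hox gene and each column an array, grouped by label (WT, wild type; KO, knockout) and day, and the colour gives the log2 RMA value minus the array's 95th percentile of the sensory receptor rows. Red rows lie above that level: Hoxa2 and Hoxd8 deepen on days 10 and 28, Hoxa4, Hoxb5 and Hoxd10 stay above it on all 24 arrays, and most rows of cluster C are blue.

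The first comparison asked which Hox genes changed as the cultures aged. It took days 5, 10 and 28 against day 2 as the mean of both labels, in a fit over the whole table. A gene was tested if it reached the array median on at least 3 of 24 arrays. That held for 14892 genes, among them 18 of the 36 Hox genes, and a change was called at an adjusted p under 0.05. On day 28, Hoxa2, Hoxb2, Hoxb3, Hoxd8 and Hoxd9 had risen, Hoxb13 and Hoxc13 had fallen, and these 7 of 18 tested Hox genes stood beside 52.3% of all tested genes called. On day 10 the same 5 genes had risen and Hoxc13 had fallen, 6 of 18 beside 42.5% (5 risen beside 19.5% and 1 fallen beside 23%). On day 5 only Hoxc13 was called, 1 of 18 beside 14.3%. In both directions together, the share called was lower among the tested Hox genes than among all tested genes on each of the 3 days, while by direction the share risen on day 10 was higher and the share fallen lower. By direction on day 28, 5 of 18 rose beside 26% of all tested genes, and 2 of 18 fell beside 26.3%. Hoxa7, Hoxb2, Hoxc10, Hoxd9 and Hoxd12 passed the filter only through later days, and Hoxb13 only with its day 2 arrays, where each is higher. These counts therefore do not speak for all 36 members. Hoxb2 and Hoxd9 are among the 5 risen, so the higher share risen on day 10 rests partly on the filter. Without a filter, 6 of 36 Hox genes rose on day 10 (16.7%) beside 12.8% of all genes, and 1 fell (2.78%) beside 14.8%.

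Hoxa2, the regulator of second-arch identity, rose most. In the labelled wild type its values were 5.03, 4.95 and 5.22 on day 2, 5.27, 5.41 and 5.59 on day 5, 6.80, 7.08 and 7.30 on day 10, and 7.48, 7.69 and 7.18 on day 28. In the labelled knockout they were 4.68, 5.49 and 4.69 on day 2, 4.11, 5.57 and 5.91 on day 5, 5.59, 6.47 and 6.26 on day 10, and 6.86, 6.84 and 6.51 on day 28. Every array of days 10 and 28 was higher than every day 2 array of its label, whereas on day 5 the labelled knockout overlapped day 2, with 1 array under the receptor background. The mean change of both labels was 1.58 ± 0.23 on day 10 (SE, 2.98-fold, limma adjusted p = 1.89e-05). By day 28 it reached 2.09 ± 0.23 (adjusted p = 3.47e-07), a rise larger than that of 96.9% of the tested genes. Over the same days all 12 macrophage and all 12 adipocyte markers rose, with levels given at the end. In bulk RNA, more cells of a type and more RNA per cell cannot be told apart.

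Hoxd8, a gene of the trunk in the middle of cluster D, followed the same course. Its values in the labelled wild type were 5.07, 5.70 and 5.67 on day 2, 5.68, 6.04 and 5.99 on day 5, 6.69, 7.22 and 6.90 on day 10, and 7.27, 7.42 and 7.16 on day 28. The labelled knockout gave 4.76, 6.05 and 5.59 on day 2, 5.00, 5.74 and 5.25 on day 5, 5.52, 6.89 and 6.14 on day 10, and 6.55, 7.24 and 6.62 on day 28. Day 28 lay wholly above day 2 in both labels, while on day 10 the labelled knockout still overlapped day 2. The mean change was 1.09 ± 0.23 on day 10 (SE, limma adjusted p = 0.000573) and 1.57 ± 0.23 on day 28 (2.97-fold, adjusted p = 7.33e-06). Within a day the arrays kept an order by replicate number: number 2 was highest on all 4 days in both labels, and number 1 was lowest on all 4 days in the labelled knockout and on 3 in the labelled wild type.

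Since Hoxa2 and Hoxd8 were the only members that rose clear of the stricter floor in both labels, their RefSeq promoters are shown, from 250 bases before to 50 bases after the annotated start (build GRCm38.p6, 5′ to 3′ on the gene's strand). Capitals mark matches to 3 motifs searched on both strands: TGATNNAT, a site bound by PBX and HOX proteins together, TGACAG, a MEIS or PKNOX site, and AGGTCA, a retinoid receptor half-site. TATAAA was searched as well and matched neither. Hoxa2 lies at chr6:52164782-52165081, minus strand, and Hoxd8 at chr2:74704365-74704664, plus strand.
Hoxa2: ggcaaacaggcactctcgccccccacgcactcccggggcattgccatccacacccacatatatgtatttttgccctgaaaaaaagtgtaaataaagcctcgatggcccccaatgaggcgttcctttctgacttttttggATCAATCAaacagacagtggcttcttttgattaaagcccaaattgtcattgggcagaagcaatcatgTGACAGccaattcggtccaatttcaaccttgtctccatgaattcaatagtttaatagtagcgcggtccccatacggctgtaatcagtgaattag
Hoxd8: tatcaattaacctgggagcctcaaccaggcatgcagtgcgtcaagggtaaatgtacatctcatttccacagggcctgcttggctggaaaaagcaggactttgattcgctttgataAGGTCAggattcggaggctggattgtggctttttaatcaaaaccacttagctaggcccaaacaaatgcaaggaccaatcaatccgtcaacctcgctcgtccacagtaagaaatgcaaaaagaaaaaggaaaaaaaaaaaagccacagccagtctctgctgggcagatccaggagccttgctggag
The Hoxa2 window held TGATNNAT on the reverse strand, as ATCAATCA at position -111 from the start, and TGACAG at -44. The Hoxd8 window held AGGTCA at -135. TGATNNAT occurred in 8.85% of all 32851 promoters of this length and in a promoter of 4 of the 20 Hox members in the table (Hoxa2, Hoxb1, Hoxb8 and Hoxd11), TGACAG in 19.2% and for 2 of the 20 genes, and AGGTCA in 16.3% and for 6 of the 20. Some of these genes had more than 1 promoter listed, so the gene counts and the promoter shares are not on 1 scale. These matches describe the letters of the windows and not bound sites. The GC content was 45.7% for Hoxa2 and 46.7% for Hoxd8, under the median of 58.7% for the Hox promoters and of 52.7% for all promoters.

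**Figure D2:**
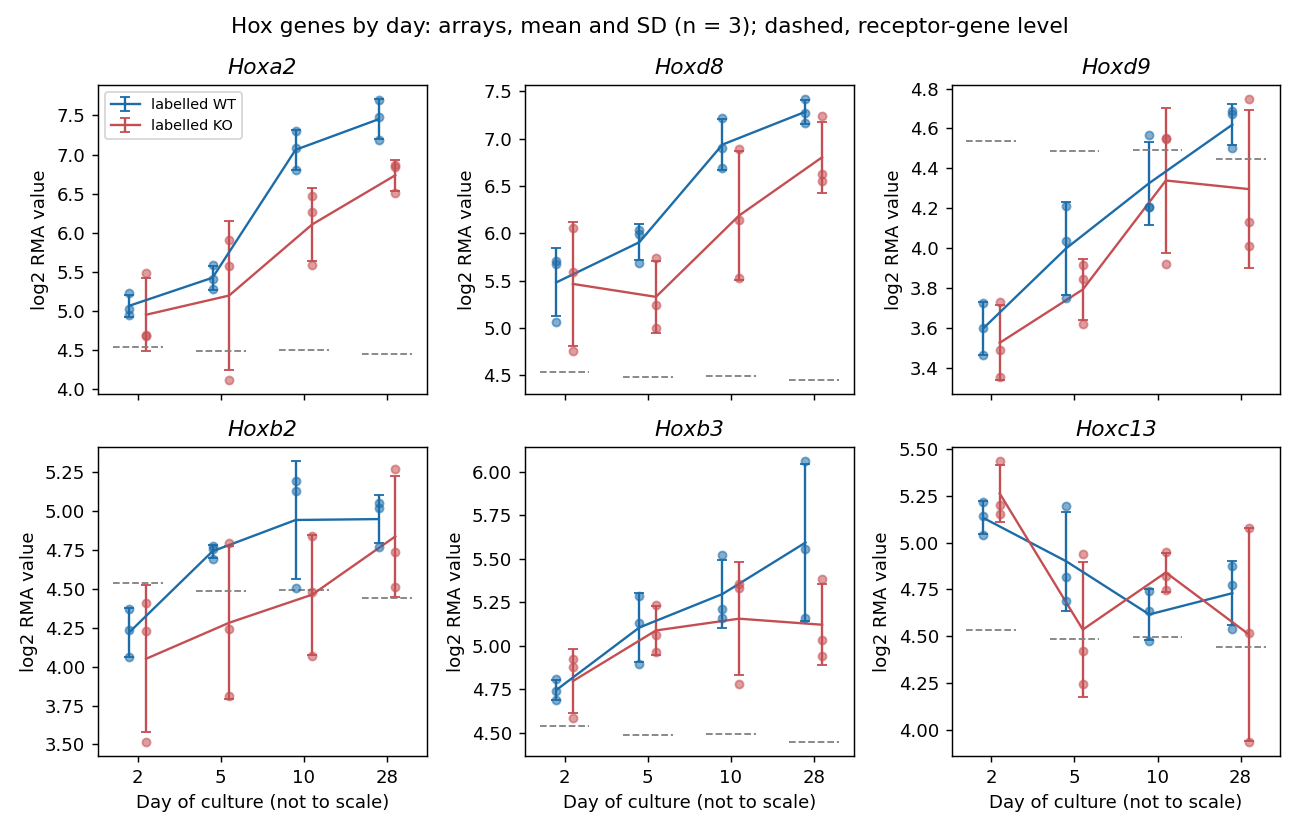
Points are single arrays, lines join the means of 3 arrays and bars give the SD, for 6 Hox genes by day of culture (x axis, not to scale) and label, on the log2 RMA scale (y axis, its range set for each gene). The dashed line is the mean 95th percentile of the receptor rows on that day. Hoxa2 and Hoxd8 climb well above it by day 28, whereas Hoxd9 starts under it and Hoxb2 and Hoxc13 stay near it.

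Hoxb2 and Hoxb3, hindbrain and neck-level genes that are neighbours in cluster B, also rose. Hoxb2 stood at 4.23, 4.06 and 4.37 on day 2 in the labelled wild type, 4.69, 4.78 and 4.76 on day 5, 4.51, 5.19 and 5.13 on day 10, and 5.06, 4.77 and 5.02 on day 28. The labelled knockout had 3.51, 4.41 and 4.23 on day 2, 3.81, 4.79 and 4.24 on day 5, 4.07, 4.84 and 4.48 on day 10, and 4.74, 4.51 and 5.27 on day 28. All 6 day 2 arrays lay under the receptor background and all 6 day 28 arrays above it, and the day 28 arrays did not overlap day 2 in either label. Its mean change was 0.57 ± 0.19 on day 10 (SE, limma adjusted p = 0.0190) and 0.76 ± 0.19 on day 28 (adjusted p = 0.00193), and with its day 2 level at the floor the size of this rise is uncertain. The day 10 call was lost without replicate 2 of the labelled wild type on day 10, and in the labelled knockout without array 1 of day 2 or array 2 of day 10 (highest adjusted p 0.0656).

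Hoxb3 read 4.81, 4.74 and 4.69 on day 2, 5.29, 5.13 and 4.90 on day 5, 5.52, 5.16 and 5.21 on day 10, and 6.06, 5.56 and 5.16 on day 28 in the labelled wild type. In the labelled knockout it read 4.59, 4.93 and 4.88 on day 2, 4.96, 5.24 and 5.06 on day 5, 4.78, 5.35 and 5.33 on day 10, and 5.03, 4.94 and 5.39 on day 28. Day 28 was widely spread in the labelled wild type but stayed above day 2 in both labels, by a narrow margin in the labelled knockout. The day 5 change of 0.33 was not called (limma adjusted p = 0.134) but was with the replicate number as a fixed block (adjusted p = 0.0387). The mean change was 0.46 ± 0.14 on day 10 (SE, limma adjusted p = 0.0124) and 0.59 ± 0.14 on day 28 (adjusted p = 0.00145). Within the labels the rise was called in the labelled wild type on both days (0.55 and 0.85, limma adjusted p = 0.0401 and 0.00200) and not in the labelled knockout, and the difference between labels did not pass its own test on either day. The day 10 call in the labelled wild type was lost without any single array but number 2 of day 10 (highest adjusted p 0.149), and also without a filter. The day 10 call in the mean of both labels was kept in every alternative (highest adjusted p 0.0367).

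Hoxd9, of the limb and lower trunk, was under the receptor background on all 6 day 2 arrays and reached the array median only on 3 arrays of day 28. Values in the labelled wild type were 3.72, 3.60 and 3.46 on day 2, 4.03, 3.75 and 4.21 on day 5, 4.21, 4.20 and 4.57 on day 10, and 4.67, 4.50 and 4.69 on day 28. Those in the labelled knockout were 3.35, 3.49 and 3.73 on day 2, 3.91, 3.62 and 3.85 on day 5, 3.92, 4.55 and 4.55 on day 10, and 4.13, 4.75 and 4.01 on day 28. Arrays of days 10 and 28 did not overlap those of day 2 in either label, and 4 of the 6 day 28 arrays exceeded the receptor background. The mean change was 0.77 ± 0.14 on day 10 (SE, limma adjusted p = 0.000130) and 0.90 ± 0.14 on day 28 (adjusted p = 1.49e-05). Since the day 2 level is at the floor, the size of this rise is uncertain.

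The 2 genes that fell belong to the tail end of their clusters. Hoxc13, which acts in hair and nail formation, had 5.22, 5.04 and 5.14 on day 2, 4.69, 4.82 and 5.19 on day 5, 4.63, 4.47 and 4.74 on day 10, and 4.54, 4.88 and 4.77 on day 28 in the labelled wild type. The labelled knockout had 5.44, 5.15 and 5.20 on day 2, 4.94, 4.24 and 4.42 on day 5, 4.75, 4.82 and 4.95 on day 10, and 5.08, 3.94 and 4.52 on day 28. Day 28 lay under day 2 in both labels, and the lowest value was replicate 2 of the labelled knockout. The mean change was -0.47 ± 0.15 on day 10 (SE, limma adjusted p = 0.0179) and -0.58 ± 0.15 on day 28 (adjusted p = 0.00340). The day 5 fall of -0.48 (adjusted p = 0.0413) lost its call in 10 of the 12 fits that left out 1 array, with an adjusted p of up to 0.110. It was kept only without replicate 3 of day 5 in the labelled wild type or replicate 1 of day 5 in the labelled knockout. Same-numbered arrays of days 2 and 5 moved together in both labels. With the replicate number as a block, the day 5 fall of Hoxc13 within the labelled knockout, -0.73, was called (limma adjusted p = 0.0275, against 0.0825 without it).

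Hoxb13, which acts in the tail bud and prostate, stood near the receptor background. It had 4.69, 4.25 and 4.77 on day 2 and 4.23, 4.10 and 3.96 on day 28 in the labelled wild type, and 4.44, 4.69 and 4.80 on day 2 and 4.37, 3.89 and 4.28 on day 28 in the labelled knockout. Day 28 arrays were all under day 2 arrays of their label and under the receptor background. The mean change on day 28 was -0.47 ± 0.10 (SE, limma adjusted p = 0.000725), and with its day 28 level at the floor its size is uncertain.

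The other 11 tested Hox genes were not called in the mean of both labels on any day. Of these, Hoxc10 was called with the replicate number as a random block, with a change of 0.37 on day 5 (limma adjusted p = 0.0436, against 0.0665 without it) and 0.31 on day 10 (0.0456, against 0.0621). Hoxa4, Hoxa6, Hoxb5 and Hoxd10 were above the receptor background on all 24 arrays. Hoxa4, a neck-level gene, ranged over the arrays from 5.02 to 5.62 with a difference of 0.12 between days 2 and 28 (95% interval -0.08 to 0.32). For Hoxa6, of the thorax, the range was 4.57 to 5.17 and the day 28 change -0.13 (-0.32 to 0.05). Hoxb5, also a trunk gene, ranged from 5.07 to 5.75 and had a change of -0.17 (-0.34 to -0.0039, limma adjusted p = 0.0803). Hoxd10, of the limb, ranged from 4.56 to 5.38 with a change of -0.16 (-0.42 to 0.10). Intervals of these 4 genes exclude a rise of the size seen for Hoxa2 or Hoxd8.

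The 18 Hox genes under the filter were looked at in a fit of all 22180 genes without a filter, which called 7 Hox genes on day 10 (27.6% of all genes) and 9 on day 28 (35.8%), and none on day 5 (7.88%). It added Hoxa5, a regulator of the lung and neck skeleton, with a change of 0.49 on day 10 and 0.71 on day 28 (limma adjusted p = 0.0177 and 0.000790), and Hoxc6, of the thorax, with -0.40 on day 28 (adjusted p = 0.00658). Hoxa5 exceeded the receptor background on 2 arrays, both of day 28 in the labelled wild type, and Hoxc6 on none, so neither value gives a dependable size.

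**Figure D3:**
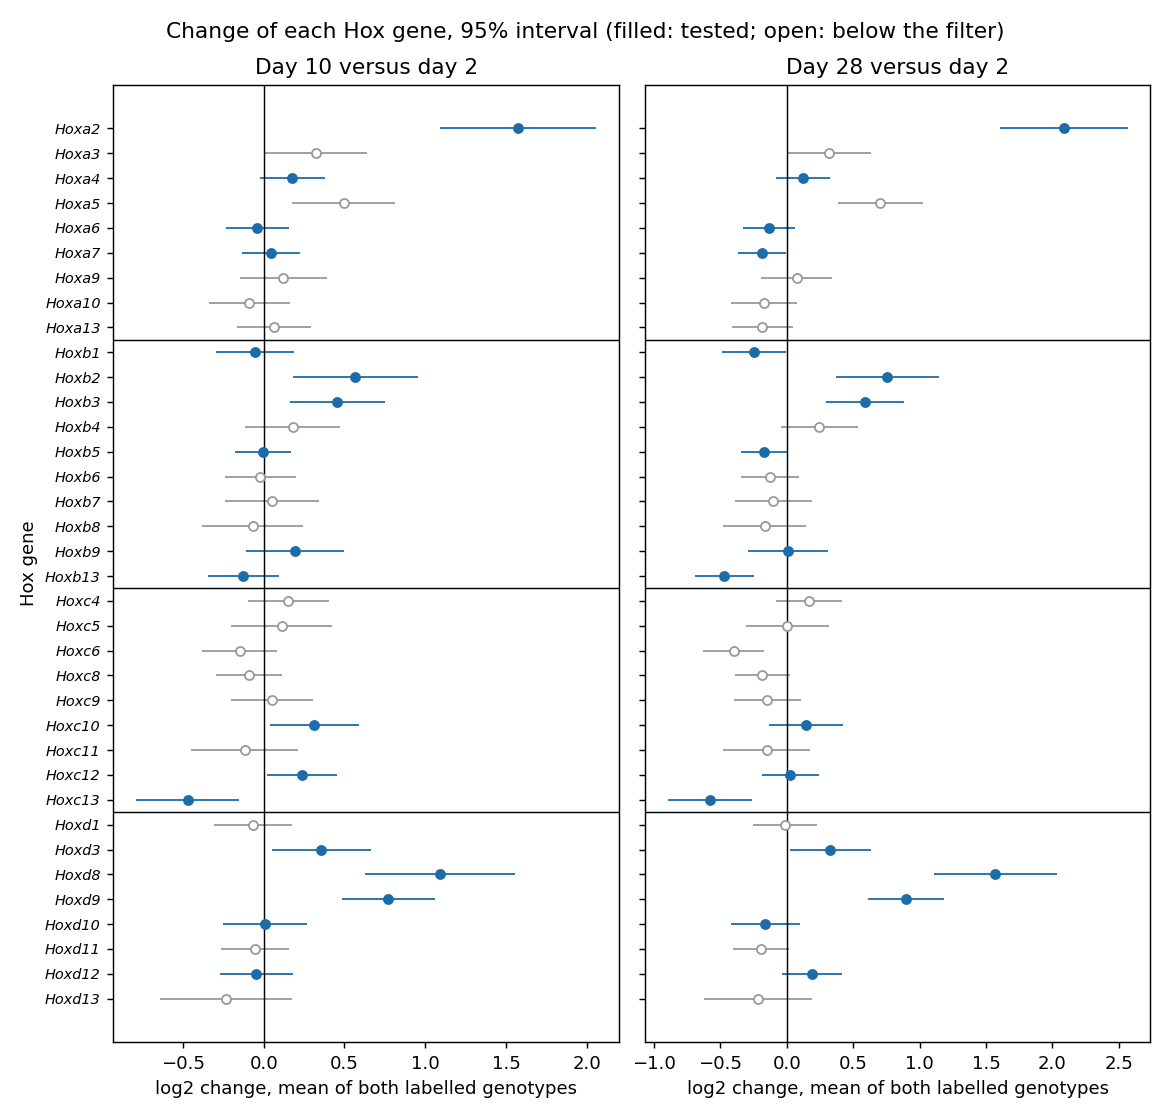
Points give the log2 change of each of the 36 Hox genes from day 2 to day 10 (left) and to day 28 (right) as the mean of both labels, with 95% intervals from the fit without a filter. Filled points are the 18 genes that passed the filter. Hoxa2 and Hoxd8 stand furthest to the right in both panels, and on day 28 the falls of Hoxb13, Hoxc13 and Hoxc6 are smaller than those rises.

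By position in the cluster, the changes of all 36 genes are given without a test, and many are of genes at the floor, whose signs carry little weight. Of the 10 genes of paralog groups 1 to 4, 6 had a positive change on day 5, 8 on day 10 and 8 on day 28, with medians of 0.06, 0.25 and 0.28. For groups 5 to 8 it was 5, 5 and 3 of 11, with medians of -0.05, -0.01 and -0.13. For groups 9 to 13 it was 9, 8 and 6 of 15, with medians of 0.00, 0.01 and -0.15. On day 28 all 36 together gave 17 positive changes and a median of -0.06, beside a median of -0.05 over all 22180 genes. On day 28, 3 of 6 tested genes of groups 1 to 4 passed the test upwards (Hoxa2, Hoxb2 and Hoxb3). It was 1 of 4 in groups 5 to 8 (Hoxd8) and 1 of 8 in groups 9 to 13 (Hoxd9). By cluster it was 1 of 4 in A, 2 of 6 in B, none of 3 in C and 2 of 5 in D. All these stand beside 26% of all tested genes risen. Hoxb2 and Hoxd9 passed the filter only through later days, and the sets are small, so no order by position is read from these counts. For Hoxd3, which acts in the upper neck skeleton, the day 28 change was 0.33 and did not pass the test (limma adjusted p = 0.0673).

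Within the labels, comparisons against day 2 share the day 2 arrays of that label and are given side by side. In the labelled wild type no Hox gene was called on day 5 (5.55% of all tested genes were), 5 were on day 10 (30.7%) and 6 on day 28 (38.8%). By direction, 5 rose on day 10 (14.4% of all tested genes) and none fell (16.2%), and 5 rose (19.6%) and 1 fell (19.2%) on day 28. Without a filter, 3 of 36 rose on day 10 (8.33%) beside 9.02% of all genes. The day 10 change of Hoxc13, -0.52, was not called there (limma adjusted p = 0.0783). It was called with the replicate number as a fixed or random block (limma adjusted p = 0.0324 and 0.0427) and when only the compared groups were fitted. In the labelled knockout none was called on day 5 (2.77%), 3 were on day 10 (24.6%) and 6 on day 28 (38%). There, 3 rose on day 10 (11.1%) and none fell (13.6%), and 4 rose (19.4%) and 2 fell (18.6%) on day 28. Among the 3 risen on day 10, Hoxc10 and Hoxd9 passed the filter only through later days. Without a filter, 2 of 36 rose there on day 10 (5.56%) beside 6.62% of all genes. Hoxa2 rose by 2.00 on day 10 and 2.39 on day 28 in the labelled wild type (limma adjusted p = 0.000136 and 1.22e-05). Its rises in the labelled knockout were 1.16 and 1.79 (adjusted p = 0.0146 and 0.000276), and the day 10 call was lost in 4 of the 6 fits without 1 array, namely those lacking array 1 or 3 from day 2, and array 2 or 3 from day 10 (highest adjusted p 0.0751). Hoxd8 rose by 1.46 and 1.80 in the labelled wild type (adjusted p = 0.00164 and 0.000165). In the labelled knockout its day 10 difference was 0.72 (adjusted p = 0.107), which was called with the replicate number as a block (adjusted p = 0.00230) and also when array 2 of day 2, or array 1 of day 10, was left out, and on day 28 it had risen by 1.34 (adjusted p = 0.00244).

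Hoxd9 was called on both days in both labels, with changes of 0.73 and 1.02 in the labelled wild type and 0.81 and 0.77 in the labelled knockout, and no call was lost without any 1 array. Hoxb2 was called on days 10 and 28 in the labelled wild type (0.72 and 0.73, limma adjusted p = 0.0442 and 0.0350) and on day 28 in the labelled knockout (0.79, adjusted p = 0.0236). The first of these calls was lost without any single array but replicate 1 of day 10, the next without replicate 1 or 2 of the starting day or 1 or 3 of day 28, and the last without replicate 1 of the starting day or 3 of day 28 (highest adjusted p 0.156, 0.110 and 0.153). Hoxb13 fell on day 28 in both labels, by 0.48 and 0.46, and each call was lost in 3 of 6 fits without 1 array: without replicate 1 or 3 of the starting day or 3 of day 28 in the labelled wild type, and without replicate 2 or 3 of the starting day or 2 of day 28 in the labelled knockout (highest adjusted p 0.0791 and 0.113). Hoxc13 fell by 0.75 on day 28 in the labelled knockout (adjusted p = 0.00929), which was lost without replicate 2 of that day (adjusted p = 0.0794). Hoxc10, of the hind limb and lumbar region, had a mean of 4.05 ± 0.04 on day 2 and of 4.58 ± 0.21 on day 10 in the labelled knockout (SD, n = 3 arrays each), around the receptor background, without overlap. Its change of 0.54 (adjusted p = 0.0415) was lost without any single array but number 2 of day 10 (highest adjusted p 0.166).

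The second comparison asked whether the Hox genes differed between the labels. Those labels are unchecked, since Arrb2 was higher in the labelled knockout and its probes may lie outside the deleted part. No Hox gene was called on day 2, 5, 10 or 28 or in the mean over days by limma. At an unadjusted p under 0.05 there were 0, 2, 2 and 2 on the 4 days and 3 in the mean. No share of all genes was taken at that unadjusted threshold, so these counts have nothing to be read against. At the adjusted threshold, 0.00672%, 0.00672%, 0.0336%, 0.228% and 0.188% of all tested genes were called in the same 5 comparisons. The share on days 2 and 5 was 1 gene each, Arrb2 itself. For Hoxa2 on day 10 the labelled knockout minus the labelled wild type was -0.95 (95% interval -1.65 to -0.26, limma adjusted p = 0.479), without overlap of the arrays. On day 28 the difference was -0.72, also without overlap (adjusted p = 0.841), and in the mean over days it was -0.50 (adjusted p = 0.330). For Hoxd8 the arrays of the labels overlapped on each day, and the mean difference was -0.46 (95% interval -0.79 to -0.12, adjusted p = 0.379). The change from day 2 was not called different between the labels for any Hox gene on days 5, 10 or 28 in limma's test of that difference. Of all tested genes, 0%, 0% and 0.00672% were called in it. At an unadjusted p under 0.05 there were 0, 1 and 0 Hox genes, again without a share of all genes at that threshold. The 95% interval of that difference for Hoxa2 on day 10 was -1.82 to 0.14.

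Hox proteins bind DNA with partner homeodomain proteins of the PBX, MEIS and PKNOX families. Of 8 such cofactor genes, all tested, 3 rose and 1 fell by day 28, beside 26% of all tested genes risen and 26.3% fallen: Meis2 by 0.99, Pknox2 by 0.81 and Meis1 by 0.67 rose (limma adjusted p = 3.97e-05, 0.00109 and 0.000495), and Pbx4 fell by 0.28 (adjusted p = 0.0405). The median of the list was 0.23 beside -0.03 over all tested genes. Meis1 and Meis2 were above the receptor background on all 24 arrays.

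Polycomb proteins keep Hox clusters silent where they are not used, and trithorax proteins oppose them. Of 21 such genes, 4 rose and 5 fell by day 28 (median 0.03), beside the same 26% and 26.3% of all tested genes. Of the core genes of the repressive complex PRC2, Ezh2 fell by 1.06 and Suz12 by 0.94. Ezh1, the alternative enzyme of non-dividing cells, rose by 1.17, and Jarid2, a PRC2 accessory factor, rose by 1.03. Dividing cell markers fell over the same days, 9 of 9 with a median of -1.82, and their part in the fall of Ezh2 was not tested.

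Retinoic acid, a vitamin A derivative, switches on Hox genes of the head end in the embryo. Of 14 retinoid genes tested, 7 rose and 2 fell by day 28 (median 0.39), again beside 26% and 26.3%. Of the synthesis enzymes listed, Aldh1a2 rose by 3.36, Aldh1a1 by 2.45 and Aldh1a3 by 1.47. Crabp2, which carries retinoic acid to its receptor, rose by 1.64. These were named for the size of their change, and the 2 genes that fell are not among them. Retinoic acid itself was not measured.

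Homeobox genes that build the Hox-free skull and first arch moved in both directions. Of 17 tested, 3 rose and 7 fell by day 28 (median -0.19). This and the counts of the next lists also stand beside 26% risen and 26.3% fallen of all tested genes. Msx2, of suture cells, fell by 2.76 and Dlx2 by 1.77, while Dlx3 rose by 1.28 and Lhx8, of the jaw and palate mesenchyme, by 1.00. Among genes next to the Hox clusters, 7 of 14 rose and 4 fell (median 0.12). Skap2, beside the head end of cluster A, rose by 1.71, and Calcoco1, beside cluster C, by 1.00. Of 18 other positional factors tested, 4 rose and none fell, with Tbx15, of the skin and limb mesenchyme, up by 0.60. Each of these lists had 0 genes called between the labels in the mean over days.

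**Figure D4:**
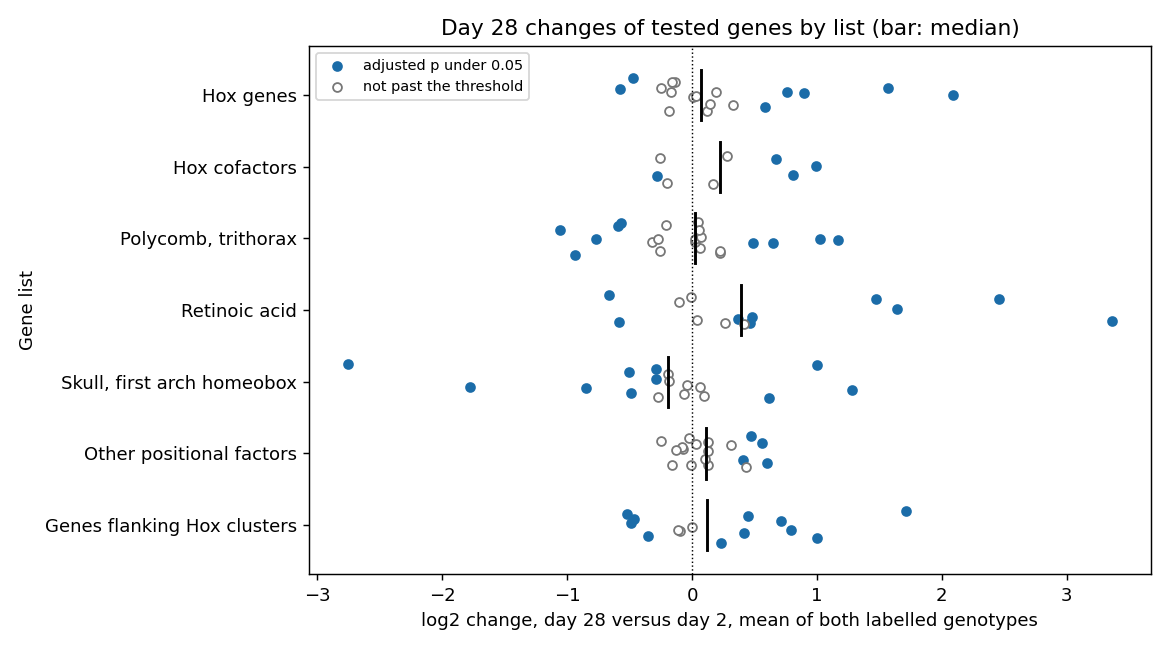
Each point is a tested gene, placed by its log2 change from day 2 to day 28 as the mean of both labels (x axis) within its list (y axis, points spread vertically for legibility). Filled points passed an adjusted p of 0.05 and bars are list medians. Hoxa2 and Hoxd8 are the 2 rightmost Hox points at 2.09 and 1.57, and the retinoic acid list reaches 3.36.

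Markers of other cells moved over the same days as the Hox genes. By day 28, 12 of 12 macrophage markers had risen (median 4.07), and the mean level of the list went from a range of 4.89-4.97 on day 2 to one of 8.40-9.36 on day 28 in the labelled wild type, and from 4.99-5.61 to 7.44-10.85 in the labelled knockout. Of these markers, 4 (Adgre1, C1qb, C1qc and Mrc1) were under the receptor background on all 3 day 2 arrays of the labelled wild type, and none was in the labelled knockout on day 2 or in either label on day 28. All 12 adipocyte markers had risen as well (median 4.13), from 4.78-4.94 to 9.71-9.97 in the labelled wild type and from 4.62-5.06 to 8.38-8.68 in the labelled knockout. Of these, 3 (Adipoq, Cd36 and Lep) were under the receptor background on all day 2 arrays of both labels. On day 10 the adipocyte level was 6.60 to 8.96 in the labelled wild type and 4.96 to 6.67 in the labelled knockout. Within the labelled knockout on day 10, replicate 2 had the highest macrophage level (9.26, the others 6.20 and 5.77) and the highest Hoxa2 and Hoxd8. It also had the highest adipocyte level there (6.67). On day 28 replicate 2 of that label (10.85) had the highest Hoxd8 but not the highest Hoxa2. In the labelled wild type on day 28, replicate 3 had the highest macrophage level (9.36, the others 8.40 and 8.83) and the lowest Hoxa2 and Hoxd8. Replicate 2 had both the highest macrophage level and the highest Hoxd8 on days 2 and 5 of the labelled knockout too. The same held on days 5 and 10 of the labelled wild type. Of these further groups, its Hoxa2 was the highest only on day 2 of the labelled knockout. On day 2 of the labelled wild type, replicate 3 had the highest macrophage level and Hoxa2, and replicate 2 the highest Hoxd8. Osteoblast markers rose in 6 of 9 and fell in 1, and smooth muscle markers fell in 6 of 8. The part of these cells in the Hox changes was not tested.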

How the data were processed

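The deposited series table holds log2 values that the authors made by RMA by means of Expression Console (Affymetrix), as the submitters' processing notes list. Its version and the genome build: not given in the sources used here. RMA sets all arrays to 1 distribution, so a change shared by most genes would be removed, and arrays have no read depth: their number limits the precision. Of 41345 rows, 23521 had 1 gene symbol, 1814 several and 16010 none, and 23328 were matched by gene ID to RefSeq (GRCm38.p6) for current symbols. Only single-symbol rows were named, with the highest-mean row for the 1082 genes with several.

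One linear model of limma (version 3.58.1, R 4.3.3), with lmFit and eBayes, had a mean for every label and day and used the 24 arrays together (16 residual degrees of freedom). Tests are two-sided, with Benjamini-Hochberg adjustment within each of 17 comparisons. Every adjusted p is limma's. The code was tested on simulated data. No pair of arrays held identical values. The Hox members, the gene lists and the tests were chosen with earlier results of these data known. Any Hox gene could be named. Called members got their values in full. From each other list up to 4 genes with the largest called change were named.

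Replicate numbers recur in all groups. Same-numbered arrays deviated together, every correlation over 0.1, for day 5 against day 2 in both labels (0.25, 0.26 and 0.35 in the labelled wild type) and for days 10 and 28 in the labelled knockout (0.17, 0.16 and 0.10 on day 28), but not for days 10 and 28 of the labelled wild type or between labels. Pairing therefore comes from the data. Alternatives were the filter, centring, rows, replicate blocks, fits of the compared groups alone and leaving out each array.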

Additional observations from a re-analysis of the deposited data

How the results depend on the processing

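The 1021 alternative values were single-gene changes, whose sign could reverse, and counts, which have no sign. No single-gene change reversed, but a change called in neither fit was not listed. Of single-gene changes 496 kept their call, 54 lost it and 21 gained it. Among the counts over all groups or of called genes, 313 stayed within 1.5 times and 33 moved further. Detection counts of single groups stayed in 79 cases and moved in 25. For day 5 in the mean of both labels, the count of called Hox genes was 1, and it was 0 without a filter, 2 with arrays centred on their medians, and 2 with a replicate block, fixed or random, nested in label. The count for day 10 in the labelled wild type fell from 5 to 3 without a filter. In the labelled knockout, day 10 went from 3 to 1 with a filter of 12 arrays, day 5 from 0 to 1 with either replicate block, and day 28 from 6 to 3 when only the compared groups were fitted. Between labels in the mean over days, a replicate block shared by the labels gave 1 call in place of 0 (Hoxd8, limma adjusted p = 0.0435). On no day did every same-numbered pair of the labels correlate over 0.1, though number 3 did on each day (0.52, 0.14, 0.37 and 0.26). Whether the numbers pair the labels is therefore not settled. Beside the values given with each gene, the block changed no other count by over 1.5 times.

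Leaving out 1 array gave 0 to 3 called Hox genes for day 5, 5 to 8 for day 10 and 7 to 9 for day 28 in the mean of both labels. It gave 0 to 0, 3 to 4 and 4 to 6 in the labelled wild type, and 0 to 1, 1 to 3 and 4 to 6 in the labelled knockout. It gave 0 to 0 for each comparison of labels and each difference of changes. Hox genes at the array median on all arrays numbered 3 to 4 and those above the receptor background 6 to 7. With medians of single-symbol rows the former were 0, and with 2 of 3 arrays per group 7. With the 99th or 90th percentile the latter were 0 or 15, so the count above background depends on the floor. Fitting only the compared groups was not run for the mean over days, which uses all groups. With 3 arrays a group, values near the floor limit how well the size of a change is known.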

Other observations

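Rows with several gene symbols were no members, and 2 of them exceeded the receptor background on all 24 arrays. The row shared by Hoxd4 and Hoxd3 had means of 5.10, 5.14, 5.90 and 5.92 on days 2, 5, 10 and 28 in the labelled wild type and 5.00, 4.99, 5.31 and 5.92 in the labelled knockout. The row shared by Hoxa3 and 5730446D14Rik had means of 5.51, 5.60, 5.94 and 6.15, and 5.57, 5.53, 5.79 and 5.98. Signal of these rows cannot be given to 1 gene. The single-symbol row of Hoxa3 ranged from 3.19 to 4.40 over the 24 arrays and exceeded the receptor background on 1. The row shared by Hoxb3 and Hoxb2 had means of 4.57 on day 2 and 5.04 on day 28 in the labelled wild type, and 4.53 and 4.79 in the labelled knockout. Of the 2 rows shared by Hoxa11 and Hoxa11os, 1 was under the receptor background on all 24 arrays and 1 was above it on 17.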
